A study of Homo sapiens with 6 samples.

Results

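MCM2, MCM3, MCM4, MCM5, MCM6, MCM7, PCNA, RRM1, RRM2 and TYMS are 10 genes of DNA replication and of deoxynucleotide synthesis, and the binding of eIF4B to their transcripts was described in a pair of human B-cell lines. Every position that the authors' tables list under one of these 10 symbols was taken, whatever its count, and each position was placed on the MANE Select transcript, the reference mRNA chosen for each gene. The 10 genes are part of 13668 protein-coding genes and 22125 genes of any type with at least 1 position in either table, and all 10 had counts in both cell lines. eIF4B is an initiation factor that assists the RNA helicase eIF4A, and its antibody was used for iCLIP, in which ultraviolet light links the protein to RNA and the nucleotide of the link is read from where reverse transcription stopped. DoHH-2 is a diffuse large B-cell lymphoma (DLBCL) line with 4 replicates, and GM01953 is a B-cell line used as the control with 2 replicates, with no treatment given for either. The replicates were pooled by the authors before the positions were counted, so each line has a single value, without an SD and without a test between the lines. Intervals are 95% intervals (Wilson for shares, exact conditional binomial for ratios of shares and exact Poisson for densities), and they cover counting error only. Where a share is 0, the limit given beside it is 3 counts of the total.

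The MCM2 to MCM7 proteins form the ring-shaped helicase that is loaded on origins before S phase and opens the DNA at the fork. PCNA is the sliding clamp that holds DNA polymerases on their template, RRM1 and RRM2 are the large and the small subunit of ribonucleotide reductase, which makes deoxynucleotides, and TYMS is thymidylate synthase, which makes dTMP. These genes are transcribed mostly around the start of S phase in dividing cells, and B-cell lines in culture divide.

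DoHH-2 held 2033156 cDNA counts at 1179243 positions, and GM01953 held 167197 counts at 78474 positions, a depth ratio of 12.2. The 10 genes took 5362 counts at 3407 positions in DoHH-2 and 415 counts at 218 positions in GM01953, so values for single genes in GM01953 rest on 14 to 95 counts. Both libraries held B-cell transcripts, with counts for 6 of 6 B-cell markers in each (MS4A1, CD79A, CD79B, PAX5, CD74 and BLK, 1802 counts in DoHH-2 and 629 in GM01953). Per 1000000 counts of the library (CPM) that is 886 in DoHH-2 and 3762 in GM01953, so their sum took a larger share in the control line, mostly through CD74 (503 and 2147 CPM) and MS4A1 (6.39 and 909 CPM), whereas CD79B stood at 48.7 and 41.9 CPM. The part of this difference in the results was not tested. CD74 was the one with the most counts, 1023 and 359, and none of the 6 was at 0. The T-cell markers CD3D, CD3E and CD8A, the myeloid markers CD14, LYZ and CSF1R, and HBB were at 0 in both lines, and CD4 had 1 count and EPCAM 2 counts in DoHH-2.

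The sequences below surround the position with the highest count of a gene in a cell line, and they are shown as the nucleotides at which each gene was cross-linked most often. The cross-linked nucleotide is in capitals with 10 nt on each side, 5′ to 3′ in the sense of the gene, from GENCODE release 44 on GRCh38 and written as DNA. The flanks follow the spliced mRNA, so those of MCM2 and MCM5 in DoHH-2 cross an exon junction, and the flanks of the RRM1 position marked as intronic follow the genome. Of several positions with the same count, the one nearest the 5′ end was taken.
PCNA in DoHH-2: gtcgttgtctTtctaggtctc
PCNA in GM01953: gtctgagggcTtcgacaccta
MCM2 in DoHH-2: ggaatcatcgGaatccttcac
MCM2 in GM01953: tcgccacagtTatcagctgcc
MCM3 in DoHH-2: aaagctttctTtgcagtagca
MCM3 in GM01953: tctactccctTaacagtgttg
MCM5 in DoHH-2: cagaggcgcaGtcatgtcggg
MCM6 in DoHH-2: aaagcgacttGtggcggtcga
MCM7 in DoHH-2: tggagaccacGtcagcgtcac
RRM1 in GM01953: tgtctggctcCaactccagtt
RRM1 in DoHH-2 (intron): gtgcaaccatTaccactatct
RRM2 in DoHH-2: gcagctgcagCtctcgccgct
TYMS in DoHH-2: caactgcaaaGagtgattgac

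Together the 10 genes held nearly the same share of eIF4B cross-links in the lymphoma line and in the control line. Their share was 0.264% of all counts in DoHH-2 (0.257–0.271) and that in GM01953 was 0.248% (0.225–0.273), which gives a ratio of 1.06 (0.961–1.18). The 6 MCM genes summed to 2974 and 231 counts, with a ratio of 1.06 (0.926–1.22), and RRM1, RRM2 and TYMS to 1170 and 89 counts, with a ratio of 1.08 (0.871–1.36). The intervals of these 3 ratios held 1. For all coding genes except histone genes the share was 70.6% in the lymphoma line against 68.9% in the control, and the ratio was 1.02 (1.02–1.03). When only positions with a false discovery rate (FDR) below 0.05 were kept, the ratio for the 10 genes was 1.03 (0.899–1.17) over all counts of each library and 1.31 (1.14–1.49) over the counts at such positions, which were 43.7% of the library in DoHH-2 and 55.6% in GM01953. With positions of at least 2 counts, in the genes and the library alike, it was 1.16 (1.02–1.31).

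Before length is taken into account, PCNA had the most counts, with 1218 in DoHH-2 and 95 in GM01953. It took 22.7% of the counts of the 10 genes in DoHH-2 (21.6–23.9) and 22.9% in GM01953 (19.1–27.2), and it ranked at place 121 among the protein-coding genes of each line. MCM3 followed with 748 and 59 counts and MCM7 with 689 and 59. MCM5 was the lowest in both lines, with 194 and 14 counts. As a share of the library, PCNA reached 599 CPM in DoHH-2 and 568 in GM01953, and MCM5 95.4 and 83.7. Fewer copies of an mRNA and less eIF4B on each copy cannot be told apart from these counts, since RNA abundance was not analysed here.

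**Figure D1:**
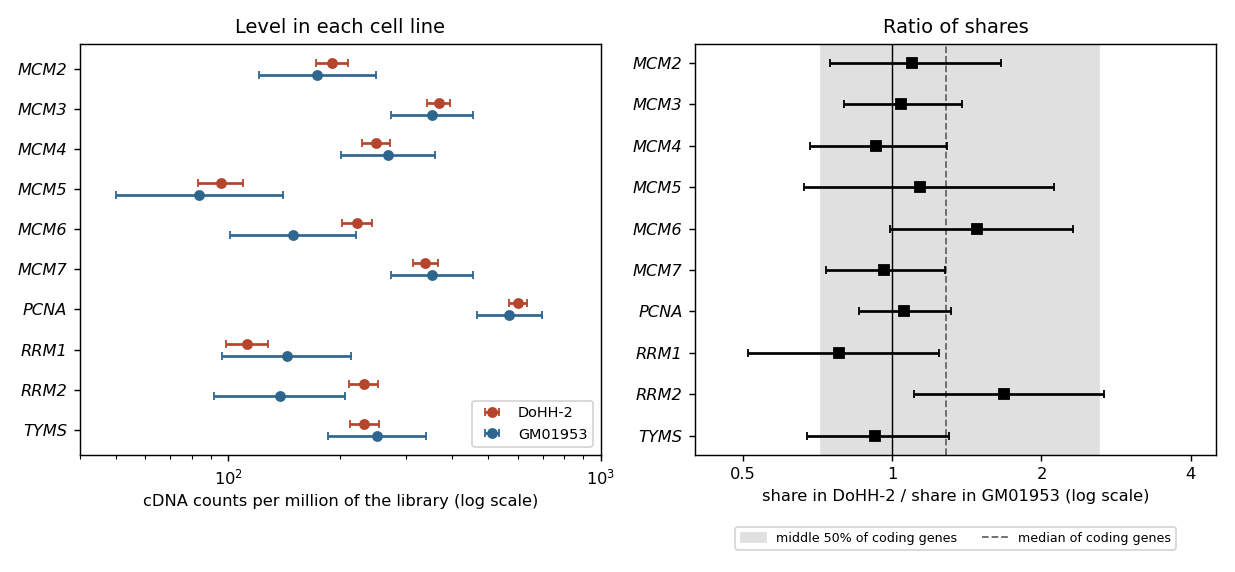
Left, cDNA counts per 1000000 of the library (CPM) for each gene in DoHH-2 and GM01953 (log axis), with 95% counting intervals. Right, the ratio of the shares (log axis) with its 95% interval, the grey band being the middle 50% of 9416 coding genes and the dashed line their median of 1.28. RRM2 is the only gene whose interval does not hold 1, with counts outside the MANE exons included.

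The ratio of shares held 1 within its interval for 9 of the 10 genes. RRM2 had 470 counts in DoHH-2 and 23 in GM01953, that is 231 and 138 CPM, with a ratio of 1.68 (1.11–2.68). MCM6 had 450 and 25 counts and a ratio of 1.48 (0.990–2.31). Of these MCM6 counts, 41 and 11 were intronic, and 409 and 14 lay on the mRNA. At the other end, RRM1 had 228 and 24 counts and a ratio of 0.781 (0.512–1.24). The subunits of ribonucleotide reductase thus stood at the top and the bottom of the 10, and each rested on fewer than 25 counts in GM01953. The others lay between 0.924 for TYMS and 1.14 for MCM5, with MCM4 at 0.927, MCM7 at 0.960, MCM3 at 1.04, PCNA at 1.05 and MCM2 at 1.09. These 10 intervals were not adjusted for their number. The share of coding genes whose interval holds 1 was not counted, so 9 of 10 has no general level beside it.

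A ratio of at least 2 in either direction was found for 0 of the 10 genes, all of which had the 20 counts asked for. Among 9416 coding genes with as many counts, 32.3% were at least 2 times higher in DoHH-2 and 14.2% in GM01953, with a median ratio of 1.28 and quartiles of 0.717 and 2.61. Shallow genes scatter more, so the 2159 coding genes with at least 200 counts, a level that all 10 genes reached, were also counted. Of these, 26.0% were at least 2 times higher in DoHH-2 and 5.33% in GM01953, and their median ratio was 1.32 (quartiles 0.909 and 2.04). The median ratio of the 10 genes was 1.05. These ratios take all counts of a gene, inside and outside the MANE exons. On the mRNA alone MCM6 went past a ratio of 2, with 53.6 CPM per kb in DoHH-2 (48.5–59.1) and 22.3 in GM01953 (12.2–37.4). The GM01953 value rests on 14 counts.

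**Figure D2:**
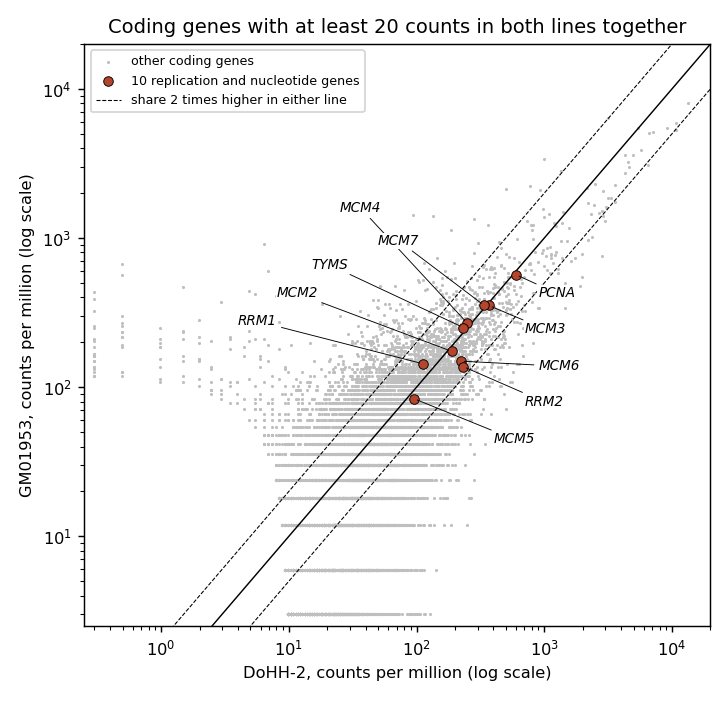
CPM in GM01953 against DoHH-2 (both log axes) for coding genes with at least 20 counts in both lines together, genes at 0 in a line being drawn near that edge. The solid line marks equal shares, and the 10 genes (red) lie between the dashed lines of a ratio of 2.

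Sites, the positions with an FDR below 0.05, held 56.3% of the counts of the 10 genes in DoHH-2, against 43.7% over the library. In GM01953 they held 58.3%, against 55.6%. Genes with more than 20 counts at sites were called bound. The paper also required enrichment of iCLIP over total RNA. That step was not applied here, so these calls rest on counts alone and are not those of the paper. All 10 genes were bound in DoHH-2, where 33.3% of coding genes were, but the share rose to 97.4% among the coding genes with at least 200 counts. In GM01953, MCM2 (25 counts at sites), MCM3 (39), MCM7 (38) and PCNA (66) were bound, which is 4 of 10 against 8.34% of coding genes and 32.3% of those with at least 200 counts. The remaining 6 had 6 to 17 counts at sites in GM01953, so a loss of binding was not detectable at this depth, and without the FDR threshold 9 of the 10 passed.

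Levels per length of mRNA showed the same top in both lines, and they are given as CPM on the mRNA per kb of its length. In DoHH-2, PCNA stood at 448 (422–474), followed by MCM7 at 121 (112–131), TYMS at 121 (109–134) and MCM3 at 110.1 (102–119). RRM2 reached 65.5 (59.5–72.0), MCM4 53.9 (48.99–59.1), MCM6 53.6 (48.5–59.1), MCM2 50.4 (45.3–56.0), RRM1 32.4 (28.1–37.1) and MCM5 20.5 (17.3–24.1). PCNA was apart from all others, whereas MCM7, TYMS and MCM3 had overlapping intervals, as did MCM4, MCM6 and MCM2. In GM01953 the order began with PCNA at 412 (331–508), MCM7 at 136 (103–176), TYMS at 119 (81.2–168) and MCM3 at 111 (84.2–144). MCM2 at 50.5 (33.8–72.5), MCM4 at 47.1 (32.2–66.5) and RRM1 at 45.7 (29.3–68.0) followed. The order ended with RRM2 at 38.6 (23.9–58.9), MCM6 at 22.3 (12.2–37.4) and MCM5 at 19.0 (9.498–34.0). The intervals of RRM2 and MCM6 lay below those in DoHH-2, whereas those of the other genes overlapped between the lines. In GM01953, 7 of the 9 pairs of neighbours had overlapping intervals, against 4 of 9 in DoHH-2.

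On the mRNA, eIF4B counts on the 10 genes were densest in the 5′ UTR. Summed over the 10 mRNAs in DoHH-2, the 5′ UTR held 824 of 4845 counts, or 17.0% (15.98–18.1), on 3.37% of the length. The coding sequence held 58.8% (57.4–60.1) and the 3′ UTR 24.2% (23.05–25.5). In GM01953 the 5′ UTR held 77 of 364 counts, or 21.2% (17.3–25.6), the coding sequence 61.5% (56.4–66.4) and the 3′ UTR 17.3% (13.8–21.5). The 3′ UTR share was thus lower in the control line, and its interval did not overlap that of DoHH-2, while those of the other parts overlapped. Without RRM2, an alternative chosen after seeing the data, the 3′ UTR shares were 23.1% (21.9–24.4) and 18.1% (14.4–22.5), with overlapping intervals. MCM3 had nearly the same share in both lines. MCM2 and MCM5 had the higher value in GM01953, but with overlapping intervals, and that of MCM5 rested on 4 of 11 counts. Over all coding genes except histone genes the 3′ UTR share was 35.8% in DoHH-2 and 26.1% in GM01953, lower in the control line as well. Their 5′ UTR share was 12.9% and 19.7%, on 4.92% and 4.78% of the length. Of the 5′ UTR counts of the 10 genes, PCNA alone held 435 of 824 in DoHH-2 and 35 of 77 in GM01953. The summed share thus leans on PCNA, and a sum without it was not taken. For single genes in DoHH-2 the 5′ UTR share ran from 2.27% in MCM2 to 37.5% in PCNA.

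The 5′ UTR was denser than the mean of the mRNA in all 10 genes in DoHH-2, by 1.05 times in MCM3 and up to 10.1 times in MCM6, with a median of 3.26. Of 2916 coding genes with at least 100 counts on the mRNA, 75.1% had a 5′ UTR above the mean, with a median of 1.98 (quartiles 1.003 and 3.60). In GM01953 it was above the mean in 8 genes and at 0 in MCM3 (of 57 counts, which allows up to 5.26%, or 3 counts) and MCM5 (of 11, up to 27.3%). The share of coding genes with a 5′ UTR above the mean was not counted in GM01953, so these 8 have no general level beside them. The 3′ UTR was above the mean in DoHH-2 in MCM2 and MCM3, and the median of the 10 genes was 0.904 times the mean, beside 0.879 for the 2916 coding genes (quartiles 0.617 and 1.23).

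With 5 regions, in which windows of 50 nt to each side of the start and stop codons are taken out, the start codon window held 11.9% of the counts of the 10 genes in DoHH-2 (11.05–12.9) and 14.8% in GM01953 (11.6–18.9). That is 3.42 and 4.25 times the mean density of these mRNAs, against 3.91 and 5.38 over coding genes except histone genes. Keeping only positions with an FDR below 0.05 turned the order of the lines, with 5.01 (4.63–5.41) in DoHH-2 and 3.37 (2.32–4.8) in GM01953. At least 2 counts per position did so too, with 4.64 (4.26–5.05) and 3.38 (2.39–4.71). GM01953 stayed higher under the other alternatives. Around the stop codon the 10 genes were at their own mean, with 3.43% of the counts and 0.982 times the mean density in DoHH-2, and 3.02% and 0.866 times in GM01953. Coding genes except histone genes had 2.25 and 2.37 times the mean there. The coding sequence outside the windows held 52.5% (51.1–53.9) and 52.2% (47.1–57.3), which is below the mean density in both lines at 0.825 and 0.821 times.

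MCM2 (chr3:127598410-127622436, plus strand, 16 exons) had 386 counts in DoHH-2 and 29 in GM01953. In DoHH-2 the start codon window held 54 of its 352 counts on the mRNA, or 15.3% (11.95–19.5). Its highest position, 127599327 with 24 counts, lay in exon 2 at +15, counted on the mRNA from the A of the start codon as 0, and it had 0 counts in GM01953. In GM01953 the counts were instead piled on few positions, with 9 counts at 127622334 in the 3′ UTR, where DoHH-2 had 2, and 8 counts at −53, nucleotide 4 of the mRNA. The stretch from −56 to −50 held 27.6% of the MCM2 counts on the mRNA in GM01953 (14.7–45.7) and 0.284% in DoHH-2 (0.0502–1.59). These GM01953 values rest on 9 positions in all.

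MCM3 (chr6:52264014-52284881, minus strand, 17 exons) carried much of its signal in the 3′ UTR. This part held 280 of 687 counts on the mRNA in DoHH-2, or 40.8% (37.1–44.5), and 23 of 57 in GM01953, or 40.4% (28.6–53.3), on 18.7% of the length. The highest position had 13 counts in each line, at 52264121 in DoHH-2 and at 52264495 in GM01953, both in the 3′ UTR of exon 17 and each with 0 counts in the other line. Within 5 nt the other line had 3 counts and 1 count, and the nucleotide next to the first, 52264122, had 5 counts in DoHH-2 and 3 in GM01953. The densest 50 nt in DoHH-2, from 462 to 511 nt past the stop codon, held 71 counts, or 10.3% (8.27–12.8), and 5 of 57 in GM01953, or 8.77% (3.81–18.9). Around the start codon MCM3 was low, with 12 counts in DoHH-2 and 0 in GM01953.

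MCM6 (chr2:135839626-135876443, minus strand, 17 exons) had the densest 5′ UTR of the 10 genes relative to its own mRNA in DoHH-2. The 50 nt from −61 to −12 held 80 of 409 counts on the mRNA in DoHH-2, or 19.6% (16.01–23.7), on 1.33% of the length. The same window held 5 of 14 counts in GM01953, or 35.7% (16.3–61.2). Its highest position in DoHH-2 was 135876411 at −46 in the first exon, with 11 counts, and the position at −60 had 3 counts in each line. The 3′ UTR held 13.4% in DoHH-2 (10.5–17.1), on 32.2% of the length.

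MCM7 (chr7:100092233-100101940, minus strand, 15 exons) had most of its counts within the coding sequence, which held 469 of 609 counts in DoHH-2, or 77.0% (73.5–80.2), and 50 of 56 in GM01953, or 89.3% (78.5–94.996), on 87.6% of the length. Its highest position in DoHH-2, 100098200 at +810, had 17 counts there and 6 in GM01953. The highest in GM01953 was 100099741 at +123, with 7 counts there and 1 in DoHH-2. The window from −79 to −30, the densest in DoHH-2 with 68 counts (11.2%), had 0 of 56 counts in GM01953, which allows up to 5.36%. An intron of MCM7 hosts the microRNAs MIR106B and MIR93, and 3 positions with 5 counts in DoHH-2 were listed for them as well.

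MCM5 (chr22:35400134-35425431, plus strand, 17 exons) had the fewest counts of the 10 genes. Its coding sequence held 113 of 144 counts on the mRNA in DoHH-2, or 78.5% (71.1–84.4), and its 3′ UTR 11.1% (6.96–17.3) on 34.0% of the length. The highest positions had 5 counts, and the one nearest the 5′ end, 35400436, lay at −3, just before the start codon, with 0 counts in GM01953 and 1 within 5 nt. No position of MCM5 had more than 2 counts in GM01953, and the first of the pair with 2 was 35424292 in the 3′ UTR, with 0 in DoHH-2. With 11 counts on the mRNA in GM01953, shares of its regions there were too uncertain to compare.

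MCM4 (chr8:47960185-47978160, plus strand, 17 exons) had 507 counts in DoHH-2 and 45 in GM01953. Its coding sequence held 286 of 445 counts on the mRNA in DoHH-2, or 64.3% (59.7–68.6), close to its 63.8% of the length. The 5′ UTR held 24 counts in the DLBCL line and 3 in the control line, which is 2.49 and 4.33 times the mean density of the mRNA. Its highest position was 47976951 in the 3′ UTR, with 11 counts in DoHH-2 but 0 in the control line. The highest of GM01953 was 47970529 at +1452, the first of a pair with 5 counts, and had 0 in DoHH-2. The densest 50 nt in DoHH-2, from +598 to +647, held 34 counts, and 0 of 32 in GM01953, which allows up to 9.38%.

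PCNA (chr20:5114953-5126626, minus strand, 6 exons) was covered along its whole mRNA. In DoHH-2, 445 of its 1276 nt had a count, or 34.9%, against 10.0% over the 10 mRNAs. The 5′ UTR of 160 nt held 435 of 1161 counts in DoHH-2, or 37.5% (34.7–40.3), and 35 of 88 in GM01953, or 39.8% (30.2–50.2). The first 50 nt of the mRNA were the densest, with 213 counts (18.3%, 16.2–20.7) in DoHH-2 and 10 (11.4%, 6.29–19.7) in GM01953. At the highest count in DoHH-2, 16, there were 3 positions, at −122, −41 and +51, and none made up more than 1.31% of the gene. In GM01953 the highest position, 5119630 at +168 in exon 1, had 12 counts, or 12.6% of the gene (7.38–20.8), and 6 in DoHH-2. The neighbouring positions −47 and −48 had 13 and 15 counts in DoHH-2 and 2 and 3 in GM01953.

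RRM1 (chr11:4094707-4138932, plus strand, 19 exons) has the longest 5′ UTR of the 10 mRNAs, 214 nt, and its GM01953 counts lay mostly there. The 5′ UTR held 14 of 24 counts in GM01953, or 58.3% (38.8–75.5), and 53 of 207 in DoHH-2, or 25.6% (20.1–32.0). All 14 lay at 8 positions between −140 and −100, where DoHH-2 had 22 counts at 17 positions, or 10.6% (7.12–15.6). The highest of them was 4094882 at −131, with 6 counts in GM01953 and 1 in DoHH-2. The highest position in DoHH-2, 4124887 with 7 counts, lay in an intron and had 0 counts in GM01953.

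RRM2 (chr2:10120698-10211725, plus strand, 10 exons on the MANE transcript) showed the widest gap in the 3′ UTR, which held 155 of 434 counts on the mRNA in DoHH-2, or 35.7% (31.3–40.3), and 1 of 21 in GM01953, or 4.76% (0.846–22.7). The 5′ UTR of 60 nt held 12.4% (9.66–15.9) in DoHH-2, which is 6.76 times the mean density, and 3 counts in GM01953. The densest 50 nt in DoHH-2 ended just before the start codon, from −50 to −1, with 44 counts. The highest position was 10122853 at +54, with 11 and 0 counts in DoHH-2 and GM01953 (1 in GM01953 within 5 nt). The highest count in GM01953 was 4, at +664, where DoHH-2 had 3, and at +828, where it had 7. RRM2 has near-identical sequence elsewhere in the genome, and positions whose next 31 nt occur at another place held 14.0% of its counts in DoHH-2 and 21.7% in GM01953. Without them the ratio of shares was 1.85 (1.15–3.15).

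TYMS (chr18:657653-673578, plus strand, 7 exons) had counts in all parts of its mRNA. The coding sequence held 223 of 397 counts on the mRNA in DoHH-2, or 56.2% (51.3–61.0), on 58.4% of the length, and the 3′ UTR 33.0% (28.6–37.8) on 36.0%. The 5′ UTR held 43 counts, or 10.8% (8.14–14.3) on 5.58%, which is 1.94 times the mean density. In GM01953 the 3′ UTR held 6 of 32 counts, or 18.8% (8.89–35.3). Its highest position was 669105 at +487 in exon 4, with 11 counts in DoHH-2 and 0 in GM01953. The highest count in GM01953 was 4, at a pair of positions of which the first, +305, had 1 in DoHH-2. In GM01953, 8 of 32 counts lay in the start codon window, or 25% (13.3–42.1), against 8.56% in DoHH-2 (6.19–11.7).

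**Figure D3:**
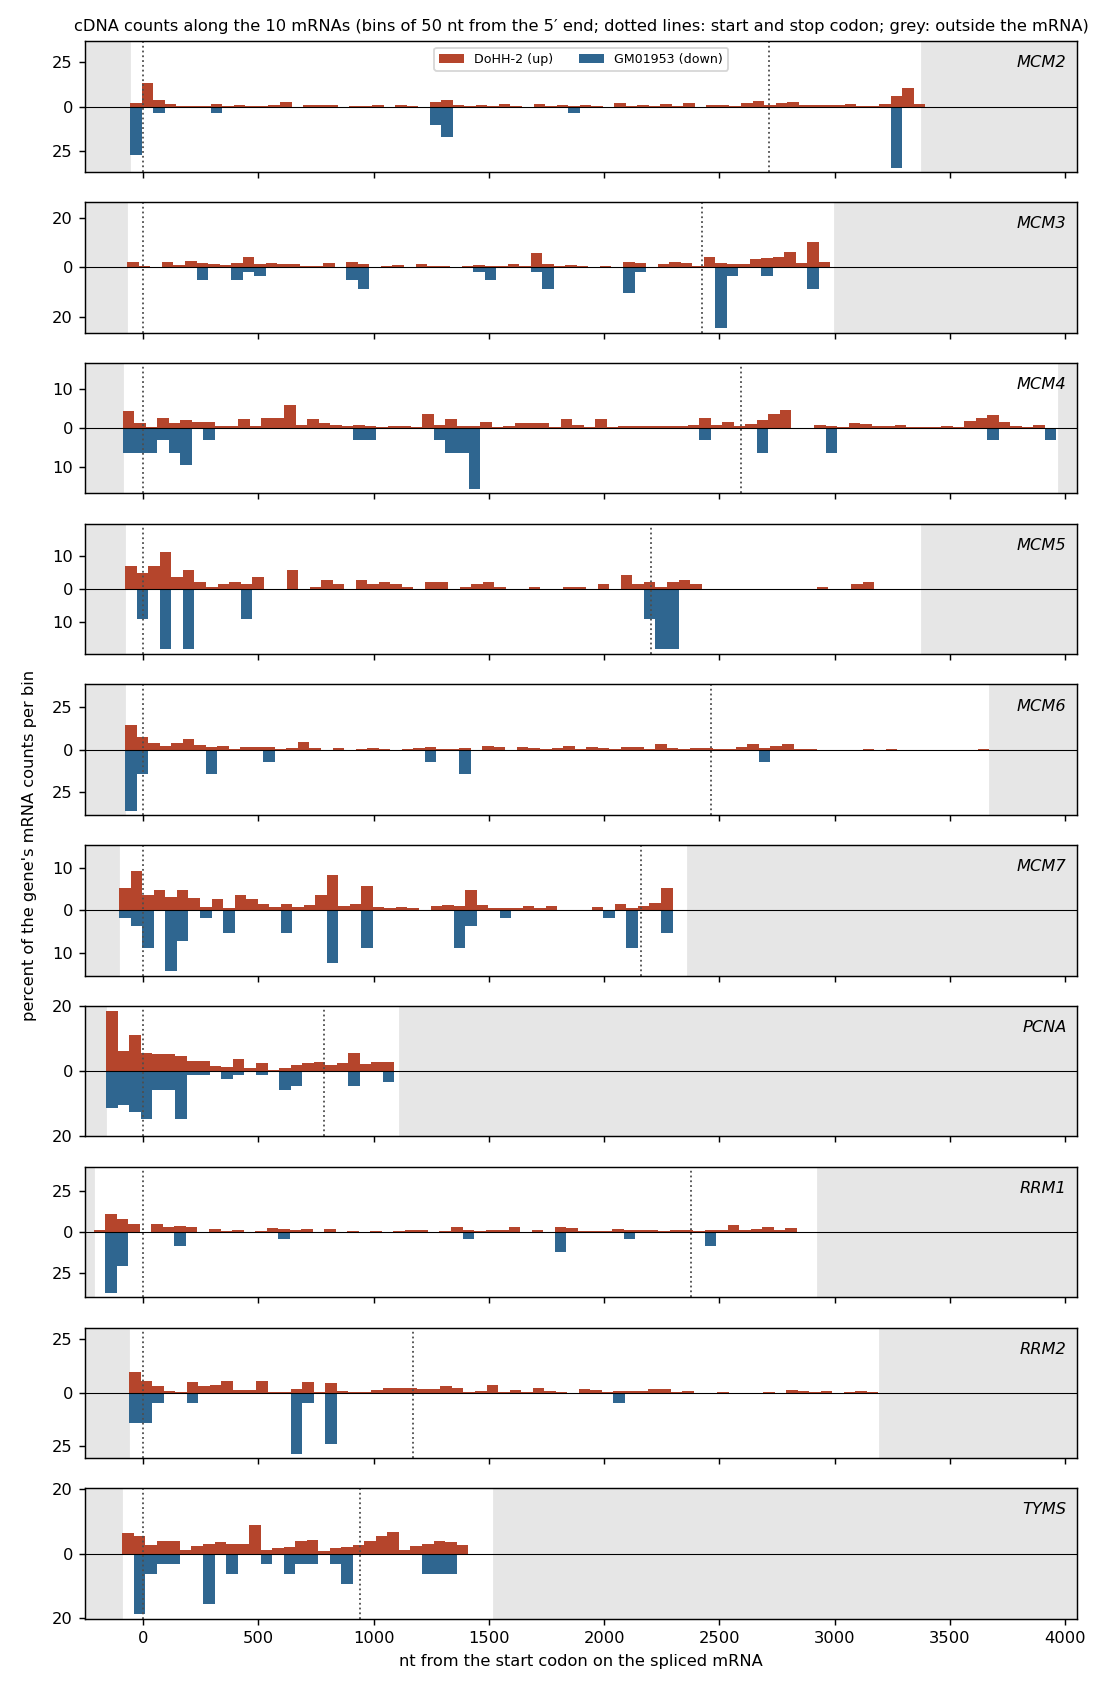
Share of each gene's counts on the mRNA (percent, vertical axis) in bins of 50 nt along the spliced MANE Select mRNA, in nt from the start codon, for DoHH-2 (upward) and GM01953 (downward). Vertical scales differ between genes. Counts gather at the 5′ end in PCNA, MCM6 and RRM1, and in the 3′ UTR in MCM3.

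The cell lines were then compared at single nucleotides. Of the 218 positions of the 10 genes in GM01953, 107 (49.1%) also had a count in DoHH-2, which is 3.14% of the DoHH-2 positions. For all coding genes the share of GM01953 positions was 33.0% of 64991, and for the coding genes with at least 200 counts it was 48.3% of 34752. Without PCNA the share was 66 of 170, or 38.8%. PCNA had the highest share, 41 of 48 (85.4%), and MCM5 the lowest, 1 of 12, and these were also the mRNAs with the most and the least of their length covered in DoHH-2 (34.9% and 3.38%). Between them the order differed, since TYMS, with 15.9% covered, had 8 of 26 and MCM6, with 7.38% covered, 6 of 13. Within 5 nt, 183 of the 218 positions had a DoHH-2 count. At least 2 counts in both lines were found at 33 positions, of which PCNA had 15 and MCM7 had 7, and none of RRM1 or MCM5.

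The densest 50 nt of each mRNA, chosen on DoHH-2, held 34 of the 364 GM01953 counts, or 9.34% (6.76–12.8), on 1.69% of the length of the 10 mRNAs. With the GM01953 counts of each gene spread evenly along its mRNA, these windows would hold 2.30%. GM01953 had counts in 7 of these 10 windows and none in those of MCM4, MCM7 and TYMS.

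Cross-linked positions were rich in T and poor in A, in the 10 genes as over other coding genes. At the 2949 positions of the 10 mRNAs in DoHH-2, 36.7% were T (35.0–38.4) against 25.2% of these mRNAs, and 12.9% were A (11.7–14.1) against 26.1%. The next nucleotide was T at 39.9% (38.1–41.7) and G at 11.9% (10.8–13.2), with G at 25.4% of the mRNAs. Over coding genes except histone genes the position itself was T at 41.7% and A at 12.996%. At the 192 positions of GM01953, 35.4% were T (29.0–42.4) and 8.85% were A (5.602–13.7). Ultraviolet light is known to link uridine more readily than other nucleotides, and its part in these shares was not tested.

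Counts outside the MANE exons made up 9.64% of the 10 genes in DoHH-2 (517 counts) and 12.3% in GM01953 (51 counts), against 24.2% and 25.02% over coding genes except histone genes. Introns held 373 counts in DoHH-2 (6.96%) and 34 in GM01953 (8.19%), exons of other transcripts 122 and 15, and the ground beyond the MANE transcript 22 and 2. In MCM6, 11 of 25 GM01953 counts were intronic, 10 of them at a pair of positions, 135865552 and 135868588, with 5 counts each. TYMS had 67 of 472 counts in introns in DoHH-2 (14.2%) and 8 of 42 in GM01953 (19.0%).

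Other genes of replication and nucleotide synthesis were read beside the 10. Counts were found for all 91 genes of 4 lists in DoHH-2 and for 90 in GM01953, with 70 (76.9%) and 10 (11.1%) of them bound, against 33.3% and 8.34% of coding genes. Their summed share was 1.24 times higher in DoHH-2 (1.17–1.31), beside 1.02 for the sum of coding genes except histone genes, and their median ratio was 1.40, beside a median of 1.28 over 9416 coding genes. Of these 91 genes, 24 (26.4%) were at least 2 times higher in DoHH-2 and 5 (5.49%) in GM01953, below the 32.3% and 14.2% of coding genes. Of the 91 genes, 35 had at least 200 counts. All 35 were bound in the lymphoma line and 9 (25.7%) in the control, against 97.4% and 32.3% of coding genes at that level. Of the 35, 8 (22.9%) were at least 2 times higher in DoHH-2 and 0 in GM01953, against 26.0% and 5.33%. Their median ratio was 1.29, below the median of 1.32 for the coding genes at that level. Licensing and helicase activation (22 genes) had a summed ratio of 1.15 (0.993–1.34), DNA polymerases and fork factors (35 genes) 1.30 (1.20–1.42), deoxynucleotide supply (15 genes) 1.22 (1.07–1.40) and de novo purine and pyrimidine synthesis (19 genes) 1.16 (1.02–1.33). The summed ratio of the 10 genes, 1.06 (0.961–1.18), was below these values, and its interval overlapped that of each list except DNA polymerases and fork factors. The difference between the lists was not tested. Single genes weigh on these sums. RFC3 held 1073 of the 9385 DoHH-2 counts of the fork factors and 31 of the 592 in GM01953. SHMT2 held 527 of 3562 and 8 of 240 in deoxynucleotide supply. Sums without these genes were not taken.

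Among the fork factors, TOP2A, the type II topoisomerase of dividing cells, had 1559 and 113 counts and a ratio of 1.13 (0.937–1.39). RFC3, a subunit of the loader that places PCNA on DNA, had 1073 and 31 counts and a ratio of 2.85 (1.99–4.21), whereas RFC1, the large subunit of the same loader, had 500 and 27 and a ratio of 1.52 (1.03–2.33). DNMT1, the maintenance DNA methyltransferase, had 608 and 57 counts and a ratio of 0.877 (0.668–1.17). POLA1 and POLA2, subunits of DNA polymerase alpha, went the other way, with ratios of 0.540 (0.371–0.809) and 0.409 (0.278–0.618) and 32 counts each in GM01953. They were named because they were bound in GM01953, as was RFC1, a choice that favours genes with a larger share there. TOPBP1 and CDC45, which act in the firing of origins, had 352 and 20 and 184 and 10 counts. GINS2, a subunit of the complex that joins CDC45 to the MCM ring, had 188 and 22 counts. Their intervals held 1.

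In deoxynucleotide supply, SHMT2, the mitochondrial serine hydroxymethyltransferase, had 527 and 8 counts and a ratio of 5.42 (2.73–12.6). DUT, which removes dUTP, had 587 and 48 counts and a ratio of 1.01 (0.749–1.38), and NME1, a nucleoside diphosphate kinase, 568 and 38 and a ratio of 1.23 (0.885–1.76). MTHFD2 and MTHFD1, enzymes of folate metabolism, had 291 and 33 and 214 and 23 counts, with ratios of 0.725 (0.505–1.07) and 0.765 (0.497–1.23). They were likewise named because they were bound in GM01953. In purine synthesis, IMPDH2 had 483 and 46 counts, GMPS 319 and 31 and PAICS 313 and 20, and the intervals of their ratios held 1.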

How the data were processed

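For each cross-linked position the authors deposited a cDNA count, in 1 table per cell line. They removed PCR duplicates with BBMap, demultiplexed with Je, merged libraries with low read numbers into 4 replicates for DoHH-2 and 2 for GM01953, mapped to GRCh38 with HiSat2 (also named in the submitters' processing notes), pooled the replicates and counted with iCount. The versions and the annotation release are not given in the sources used here. The false discovery rate (FDR, a q-value) was also deposited by the authors and came from permutations of counts within the gene. A column with counts summed over a window was not used.

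Positions in the tables count from 0, which was read from the base composition at the positions on each strand, and 1 was added. Positions listed under several genes were counted 1 time per gene and 1 time in the library total. GENCODE release 44 held 98.8% of the gene identifiers listed for DoHH-2 and 99.2% of those for GM01953. Shares were taken over all cDNA counts of a cell line, with Python 3.11.15, pandas 2.3.3 and scipy 1.17.1. PCR duplicates that were left are not covered by the intervals. Placement on transcripts and the ratio of shares were checked on simulated data. A position was called non-unique where its next 31 nt occur elsewhere in the genome.

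The 10 genes, the other lists and the tests were chosen with earlier results of these data known. Named were all 10 genes, in each other list the 3 genes with the highest DoHH-2 count and each gene bound in GM01953, the highest position of each gene, positions with at least 2 counts in both lines, and the 3 genes closest in the shares of 5 regions. Of the marker genes, 1 is not reported here. Other positions were chosen after their values were seen. Alternatives were an FDR filter, at least 2 counts per position, leaving out the highest position, positions in place of counts, other denominators and assignments, the longest coding transcript, windows of 25 nt and other thresholds for bound genes.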

Additional observations from a re-analysis of the deposited data

How the results depend on the processing

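Each line is 1 pooled table, in which replicates cannot be compared or left out, and no value has a test. No paired analysis was possible because the columns carry no replicate. In GM01953 the depth limits single genes, since 9 of the 10 have fewer than 60 counts.

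Of 65 values under alternatives, 36 stayed within the 95% interval of the value reported (or within 1.5 times a number of genes) and 29 moved. The ratio of the share of the 10 genes moved beyond its interval only with an FDR below 0.05 applied to the 10 genes and the library alike (1.31), and with that filter on the 10 genes alone, chosen after seeing the data, it was 1.03, the shares being 0.148% in DoHH-2 and 0.145% in GM01953. With at least 2 counts per position the ratio was 1.16, with an interval above 1 (1.02–1.31). Causes were not tested. The share in DoHH-2 became 0.340% with the filter on both, 0.272% with at least 2 counts per position, 0.272% without the highest position of each gene, 0.289% with positions in place of counts, 0.373% over counts of coding genes except histone genes, 0.238% by MANE exons, 0.204% without PCNA and, chosen after seeing the data, 0.256% without positions that occur elsewhere. In GM01953 it became 0.278% with positions, 0.360% over coding genes, 0.218% by exons and 0.191% without PCNA. Genes bound in GM01953 numbered 9 without the FDR, 1 with more than 50 counts and 8 with more than 10. The coding share in DoHH-2 became 42.7% with the FDR filter, 45.1% with at least 2 counts, 57.9% with positions, 56.0% with windows of 25 nt and 57.5% on the longest transcript. The start codon window over the mRNA mean in DoHH-2 became 5.01, 4.64, 2.43, 2.48 and 3.17 in the same order, and 3.17 without the highest position of each gene.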

Other observations

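The genes whose counts in DoHH-2 were spread over the 5 regions most like those of the 10 genes summed were GBE1, TACC3 and MATR3, among 1284 coding genes with at least 200 counts on the mRNA. The measure was the sum of absolute differences in percentage points, which was 6.44 for GBE1, a glycogen branching enzyme with 717 counts, 8.10 for TACC3, a protein of the mitotic spindle with 327 counts, and 10.0 for MATR3, a protein of the nuclear matrix with 965 counts. For GBE1 the shares were 7.39% for the 5′ UTR, 13.4% for the start codon window, 53.4% for the coding sequence, 2.37% for the stop codon window and 23.4% for the 3′ UTR.

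PCNA had 15 counts at 11 positions in DoHH-2 upstream of or beyond its MANE transcript, 5 of them at 5119959, the nucleotide just before the annotated first base of the mRNA. The positions with a copy of their next 31 nt elsewhere held 5.25% of the PCNA counts in DoHH-2 and 5.26% in GM01953.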
